A study of Mus musculus with 8 samples.

Results

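The 9 small leucine-rich proteoglycans osteomodulin (Omd), osteoglycin (Ogn), asporin (Aspn), Prelp, lumican (Lum), decorin (Dcn), biglycan (Bgn), fibromodulin (Fmod) and podocan (Podn), together with the large proteoglycan versican (Vcan), were followed in the left ventricle of mice through pregnancy and just after birth. These 10 genes were taken by symbol from the 22180 genes of the array table, each through its probe set with the highest mean over the arrays. They hold 13 probe sets, because Prelp, Bgn and Fmod had a second one. RNA came from C57BL/6 females of 3 to 4 months, and the labels name no transgene or drug. There were 2 arrays in each of 4 states: non-pregnant in diestrus (replicates 2 and 3), pregnant at day 12 (replicates 2 and 3), pregnant at day 19 (replicates 1 and 2, a group that the protocol text places at days 18 and 19), and post-partum at day 1.5 (replicates 2 and 4). All animals were under isoflurane before cervical dislocation. RNA was made from 1 piece of the dissected ventricle, and the labels do not say which animal each array came from, so p-values measure only the spread between these samples.

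Small leucine-rich proteoglycans are secreted proteins with a core of leucine-rich repeats that bind collagen fibrils and set their diameter and spacing. Several also bind growth factors of the TGF-beta family or receptors on cells. Versican belongs to another family, the hyalectans, which bind hyaluronan and hold water in loose, pliable matrix. In the heart both kinds of proteoglycan are made mainly by fibroblasts and by cells of valves and vessel walls, not by cardiomyocytes.

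Values are log2 RMA intensities, so a difference of 1 is a change of 2-fold in the measured signal. RMA equalised the arrays, and intensities of different genes were not set against each other. In whole tissue, fewer cells of a type and less RNA per cell cannot be told apart. Day 19 replicate 2 stood apart from the rest: it correlated with the other arrays at 0.969 to 0.977, against 0.980 to 0.992 among those. The 9 macrophage markers averaged 1.43 log2 above the diestrus mean on that array and 0.12 on its partner; their summed intensity was 3984 and 4557 at day 12, 4714 (replicate 1) and 10940 (replicate 2) at day 19 and 4049 and 5566 post-partum, against 4119 and 4490 in diestrus. The mean of the cardiomyocyte markers, 8 of 8 measured, stayed within 0.18 of its diestrus mean on every array. It was bright, at a log2 intensity of 11.7 to 12.0, though Myl2 among them read 8.46 to 8.87. As a set they mark cardiomyocytes, not the left ventricle alone. At day 12 the summed intensity of the 6 atrial markers was 3359 and 4269. At day 19 it was 12480 (replicate 1) and 4093 (replicate 2). It was 3173 and 4919 post-partum, against 4720 and 3329 in diestrus. By mean log2 value these markers were 2.51 above the diestrus mean on day 19 replicate 1. They were also above it on day 12 replicate 3 (0.94) and diestrus replicate 3 (0.47), which the sum does not show, and below it on the other arrays. Myl7, Myl4 and Sln had their highest values on these arrays, but the other atrial markers did not. Nppa was lowest on diestrus replicate 3 (11.03) and next lowest on day 12 replicate 3 (11.13). Bmp10 was high only on day 19 replicate 1 (8.06), and Kcnj3 was highest on day 12 replicate 2 (9.67). The part of macrophage and atrial transcripts in the results on proteoglycans was not tested, except where values without those arrays are given.

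Asporin, osteomodulin and osteoglycin lie next to each other on mouse chromosome 13, with no protein-coding gene between them and all inside the span of Cenpp. Their promoters are printed because they are neighbours, which like the other small leucine-rich genes averaged lower in pregnancy than in diestrus. The versican promoter, also on chromosome 13 but far away, is printed because versican was lower at day 12 but higher than diestrus at day 19. Each sequence runs 5′ to 3′ over 250 bases before and 50 bases after the RefSeq start site (GRCm38.p6), and capitals mark matches to the motifs searched. The windows are chr13:49544193-49544492 on the plus strand for Aspn, chr13:49582212-49582511 on the plus strand for Omd, chr13:49607765-49608064 on the plus strand for Ogn and chr13:89742463-89742762 on the minus strand for Vcan.
Aspn promoter: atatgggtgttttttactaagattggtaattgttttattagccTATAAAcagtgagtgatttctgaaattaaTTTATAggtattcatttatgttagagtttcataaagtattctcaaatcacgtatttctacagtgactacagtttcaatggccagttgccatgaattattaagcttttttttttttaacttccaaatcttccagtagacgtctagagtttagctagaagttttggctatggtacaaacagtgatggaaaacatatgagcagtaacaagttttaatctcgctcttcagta
Omd promoter: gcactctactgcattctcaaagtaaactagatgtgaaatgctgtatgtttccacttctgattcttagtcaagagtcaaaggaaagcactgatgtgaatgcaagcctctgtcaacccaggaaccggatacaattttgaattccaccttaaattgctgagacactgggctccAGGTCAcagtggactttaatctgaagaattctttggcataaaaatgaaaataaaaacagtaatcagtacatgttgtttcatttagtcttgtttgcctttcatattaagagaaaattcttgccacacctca
Ogn promoter: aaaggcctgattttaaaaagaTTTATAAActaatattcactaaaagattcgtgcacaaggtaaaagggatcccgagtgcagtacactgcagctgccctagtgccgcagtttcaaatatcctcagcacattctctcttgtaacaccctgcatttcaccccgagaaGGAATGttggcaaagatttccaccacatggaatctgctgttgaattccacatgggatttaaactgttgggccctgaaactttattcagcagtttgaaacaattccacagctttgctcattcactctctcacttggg
Vcan promoter: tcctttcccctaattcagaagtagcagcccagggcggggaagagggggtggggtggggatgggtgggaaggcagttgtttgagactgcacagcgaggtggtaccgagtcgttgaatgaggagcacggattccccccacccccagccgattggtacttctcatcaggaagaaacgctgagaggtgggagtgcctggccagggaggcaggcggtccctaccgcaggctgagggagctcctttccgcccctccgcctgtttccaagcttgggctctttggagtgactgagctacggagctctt

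The asporin, osteomodulin and osteoglycin windows were rich in A and T, with 31.0%, 37.7% and 42.3% G or C, while the versican window held 61.0%, against a median of 52.7% over 32851 promoter windows. Motifs were searched on both strands, and matches could overlap. The TATA box letters TATAAA occurred in the Aspn and Ogn windows and in 13.6% of all windows, 207 bases before the start in Aspn and 227 in Ogn, with a match on the other strand beside each. The oestrogen receptor half-site AGGTCA began 80 bases before the start of Omd, lay on the other strand in Podn, and occurred in 16.3% of windows. The TEAD motif GGAATG began 86 bases before the start of Ogn and occurred in 14.7% of windows. The steroid receptor half-site TGTTCT occurred in the Bgn window and in 19.0% of windows. The AP-1 motif TGANTCA was in none of the member windows and in 7.81% of all. RefSeq windows were at hand for 8 of the 10 genes. These matches describe letters and show no binding.

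All 10 proteoglycan genes averaged lower at day 12 than in diestrus, and 9 of 10 at day 19; versican was the exception at day 19. After birth the picture split, with 6 genes lower and 4 higher than in diestrus, and osteomodulin and versican lay farthest apart. No gene on the array passed the test in any of 5 comparisons, so these are patterns of level and none is a call: 0.0% of 13872 genes had a limma adjusted p under 0.05 in each comparison. At an unadjusted p under 0.05, day 12 against diestrus gave 321 genes (2.31%) and none of the 10. Day 19 against diestrus gave 1011 (7.29%) and 3 members (Omd, Ogn and Aspn). Post-partum against diestrus gave 918 (6.62%) and 2 members (Omd and Vcan). Day 19 against day 12 gave 898 (6.47%) and 1 member, and post-partum against day 19 gave 1145 (8.25%) and 4 members. Omd was tested only through its diestrus mean, so the filter favours its place in these and the later counts of genes below diestrus. The plot of log2 intensities by array shows these values gene by gene.

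**Figure D1:**
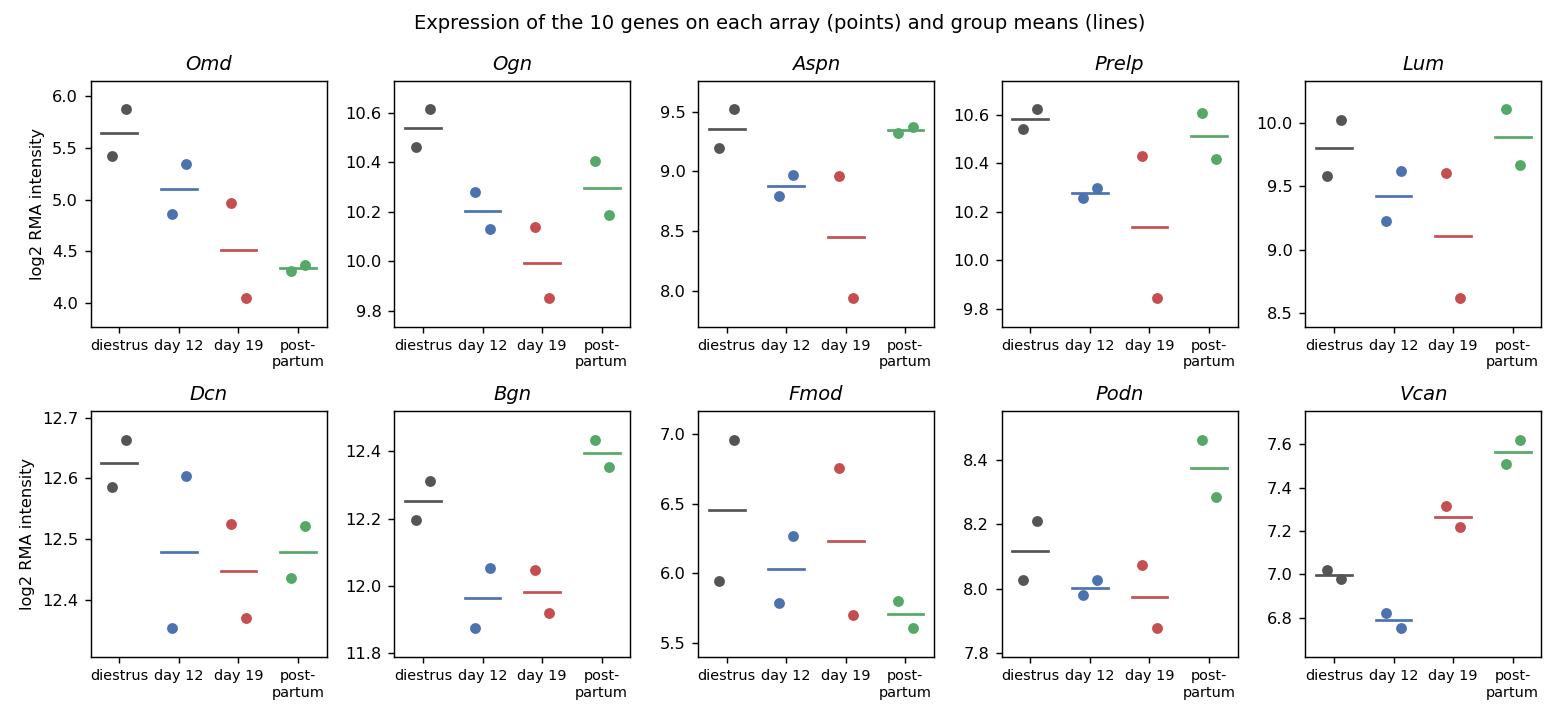
log2 RMA intensity of each of the 10 genes (y axis, its own range in each panel) by state (x axis, with diestrus first and post-partum last); points are arrays and lines the means of 2 arrays. Omd lies highest in diestrus, the 4 states of Vcan do not overlap, and for all 10 genes the lower day 19 point is replicate 2.

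At day 12 the 10 genes had a median log2 difference of -0.32 from diestrus, while the median over all genes tested was 0.02. A difference below 0 was found in 10 of 10 members, against 44.9% of all genes, and one above 0 in 0 members, against 55.1%. In 7 of them both day 12 arrays lay below both diestrus arrays, which 15.6% of all genes did. The largest difference was that of Omd (-0.54) and the smallest that of Podn (-0.12), and limma gave an adjusted p of 1.00 for all 10. Fibroblast markers went the same way: the 10 of 10 measured averaged 0.35 and 0.21 log2 below the diestrus mean on the day 12 arrays, where the 9 small leucine-rich proteoglycans averaged 0.44 and 0.23 below it. The summed fibroblast intensity was 6778 and 8214 at day 12, against 8314 and 9218 in diestrus. Whether fibroblast content accounts for the difference was not tested.

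At day 19 the median member difference from diestrus was -0.36, against -0.03 over all genes. A difference below 0 was found in 9 of 10 members and in 55.5% of all genes, and one above 0 in 1 member and 44.5%. In 6 members both day 19 arrays lay below both diestrus arrays (20.4% of all genes), and in Vcan both lay above (16.4%). These values rest on uneven arrays. The 9 small leucine-rich proteoglycans averaged 0.80 below the diestrus mean on replicate 2, the array with high macrophage markers. They averaged 0.21 below it on replicate 1, the array with the highest atrial transcripts. Fibroblast markers averaged 0.63 and 0.09 below it on replicates 2 and 1, and their summed intensity was 6626 and 8781 on these, against 8314 and 9218 in diestrus. Markers of other cell types differed too: 6 of 7 endothelial markers averaged lower at day 19 than in diestrus (median -0.31), as did 8 of 9 mural markers (-0.25), while 9 of 9 mesothelial markers averaged higher (0.51). The endothelial mean was 0.43 and 0.09 below diestrus on replicates 2 and 1 and the mural mean 0.38 and 0.19 below it, and the mesothelial mean was 0.004 and 1.01 above it. Summed intensities on replicates 2 and 1 were 5406 and 6572 (endothelial), 6200 and 7350 (mural) and 476 and 975 (mesothelial), against 6676 and 7674, 8430 and 8109, and 410 and 527 in diestrus. The part of these cell types in the proteoglycan values was not tested. Without replicate 2 the median was -0.17 and no member passed the test. Without replicate 1 it was -0.71, 1233 genes passed, and Omd, Ogn, Aspn, Prelp and Lum were among them, with the lone day 19 array assumed to vary like the other groups.

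Post-partum, the median member difference from diestrus was -0.04, against -0.004 over all genes. A difference below 0 was found in 6 members (50.6% of all genes) and one above 0 in 4 (49.4%). Without overlap, 4 members were lower (21.7% of all genes) and 3 were higher (21.1%). Omd, Ogn, Dcn and Fmod were the lower ones, and Bgn, Podn and Vcan the higher. The second Fmod probe set averaged higher than in diestrus (0.14).

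Set against day 12, 7 of 10 members averaged lower at day 19 (57.2% of all genes) and 3 higher (42.8%), with a median of -0.09 against -0.04 over all genes. None was lower without overlap (23.2% of all genes), and Vcan alone was higher without overlap (16.3%). Without day 19 replicate 2 only 2 members were lower, and without replicate 1 the median was -0.34, 1312 genes passed the test, and Omd (-1.06) and Aspn (-0.94) were among them. Set against day 19, 8 of 10 members averaged higher post-partum (52.3% of all genes) and 2 lower (47.7%), with a median of 0.34 against 0.01 for all genes, and in 6 both post-partum arrays lay above both day 19 arrays (19.0%), while 0 were lower without overlap (14.3%). Without day 19 replicate 1, 872 genes passed, with Aspn, Prelp and Lum among them, and without replicate 2 no member passed. The comparisons share arrays: the day 19 arrays stand in 3 of the 5 and the diestrus arrays in 3.

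**Figure D2:**
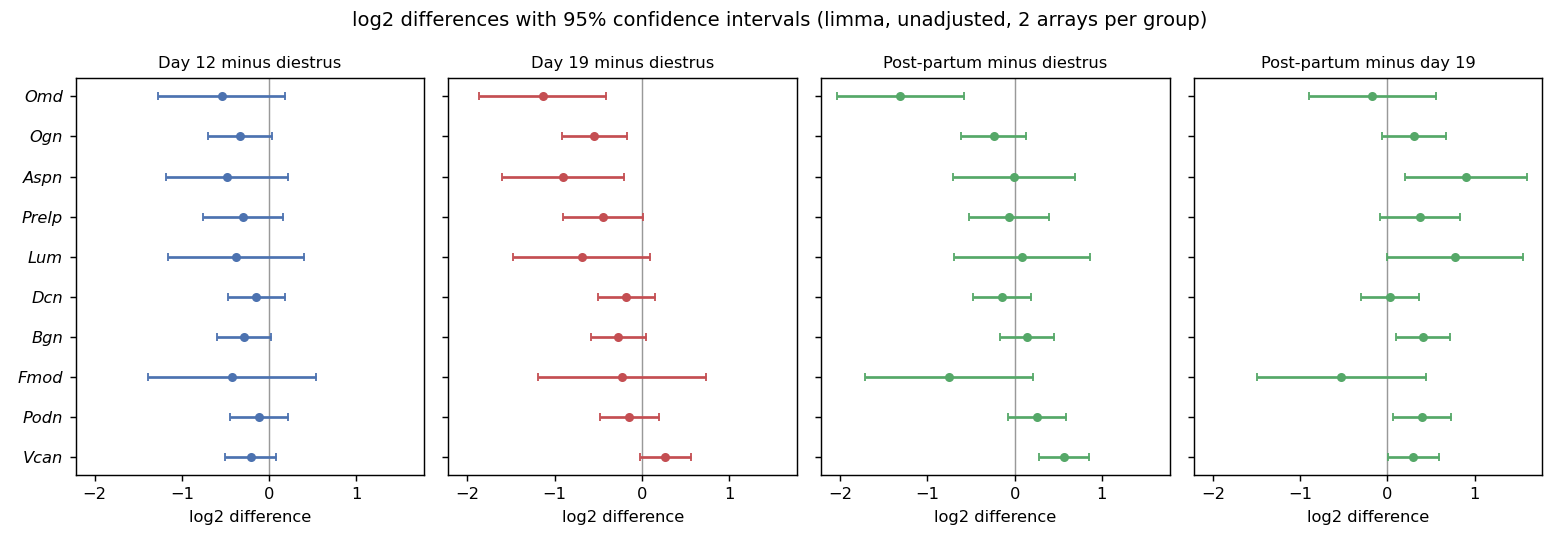
log2 difference (x axis) of each gene (y axis) for day 12, day 19 and post-partum against diestrus and for post-partum against day 19; points are limma estimates from 2 arrays per group and bars 95% confidence intervals without adjustment. The Omd interval lies below 0 at day 19 and post-partum, the Vcan interval above 0 post-partum, and the Aspn interval below 0 at day 19 but on both sides of 0 post-partum.

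Decorin, which binds collagen and TGF-beta and is the best known member of class I, varied least. Its log2 intensity was 12.59 and 12.66 in diestrus, 12.35 and 12.60 at day 12, 12.53 and 12.37 at day 19, and 12.44 and 12.52 post-partum. Both diestrus arrays were above all others except day 12 replicate 3, which lay between them. The log2 difference was -0.15 (SE 0.14) at day 12, -0.18 at day 19 and -0.15 post-partum, with adjusted p of 0.73 or more.

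Biglycan, the close relative of decorin, also signals through Toll-like receptors when released from matrix. It had 12.19 and 12.31 in diestrus, 11.87 and 12.05 at day 12, 12.05 and 11.92 at day 19, and 12.44 and 12.35 post-partum. Both pregnancy groups lay below diestrus, and post-partum lay above it, without overlap, while day 12 and day 19 overlapped. Post-partum against day 19, the log2 difference was 0.41 (SE 0.13, adjusted p = 0.59), or 1.33-fold higher. The second Bgn probe set had 8.02 and 8.13 in diestrus, 7.35 and 7.32 at day 12, 7.73 and 7.96 at day 19, and 8.11 and 8.44 post-partum. It gave the same directions against diestrus with other sizes: -0.74 at day 12, -0.23 at day 19 and 0.20 post-partum, against -0.29, -0.27 and 0.14 in the brighter set. Day 12 was the lower of the pregnancy states in both sets, by little in the brighter one.

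Asporin, which binds collagen and restrains TGF-beta and BMP signalling, had 9.20 and 9.52 in diestrus, 8.79 and 8.97 at day 12, 8.96 and 7.94 at day 19, and 9.32 and 9.37 post-partum. The pregnancy arrays all lay below the diestrus and post-partum arrays, and post-partum lay within the diestrus range. Against diestrus the log2 difference was -0.91 at day 19 (SE 0.30, adjusted p = 0.66), or 1.88-fold lower, and -0.48 at day 12. Post-partum against day 19 it was 0.90 (SE 0.30, adjusted p = 0.59). The size rested on replicate 2: without it the difference of day 19 from diestrus was -0.40, and without replicate 1 it was -1.42 (adjusted p = 0.0038).

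Lumican, a class II member that organises fibrils in cornea, skin and heart, came closest to asporin in pattern among the class II genes. Its values were 9.58 and 10.02 in diestrus, 9.22 and 9.62 at day 12, 9.61 and 8.61 at day 19, and 10.11 and 9.67 post-partum. Diestrus overlapped with every other group, and post-partum lay above both pregnancy groups. The log2 difference of day 19 from diestrus was -0.69 (SE 0.34, adjusted p = 0.66). Without replicate 2 this was -0.20, and without replicate 1 it was -1.19 (adjusted p = 0.040).

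Prelp, which anchors basement membranes to the underlying collagen, had 10.54 and 10.62 in diestrus, 10.26 and 10.30 at day 12, 10.43 and 9.84 at day 19, and 10.61 and 10.42 post-partum. Both pregnancy groups lay below diestrus, with log2 differences of -0.30 at day 12 and -0.44 at day 19 (SE 0.20, adjusted p = 0.66 at day 19), and post-partum overlapped with diestrus. Without day 19 replicate 1 the difference at day 19 was -0.74 (adjusted p = 0.028), and without replicate 2 it was -0.15. Its second probe set had -0.25 at day 12, -0.35 at day 19 and 0.08 post-partum, so that only the post-partum sign differed.

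Osteomodulin, known in bone as a binder of mineral and integrins, showed the largest differences of the 10. Its log2 intensity was 5.42 and 5.87 in diestrus, 4.86 and 5.35 at day 12, 4.97 and 4.05 at day 19, and 4.31 and 4.37 post-partum. Both diestrus arrays lay above all 6 others, and the order of means ran from diestrus over day 12 and day 19 to post-partum, with overlap between neighbours in the last 3. Against diestrus the log2 difference was -0.54 at day 12, -1.14 at day 19 (SE 0.31, adjusted p = 0.66) and -1.31 post-partum (SE 0.31, adjusted p = 0.72). Post-partum was 2.48-fold lower than diestrus. This gene is dim: it was tested only because its diestrus mean of 5.65 exceeded the minimum of 5.19, while the means of 5.10, 4.51 and 4.34 in the other groups were below it. Its count among genes tested therefore rests on the state in which it was highest. Without day 19 replicate 1 its day 19 difference was -1.60 (adjusted p = 0.0098), and without replicate 2 it was -0.68.

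Osteoglycin, a class III member and the neighbour of osteomodulin, has been linked in rats and mice to left ventricular mass. It had 10.46 and 10.61 in diestrus, 10.28 and 10.13 at day 12, 10.14 and 9.85 at day 19, and 10.41 and 10.19 post-partum. Both diestrus arrays lay above all others. The log2 difference was -0.33 at day 12 (SE 0.16), -0.54 at day 19 (adjusted p = 0.66, 1.46-fold lower) and -0.24 post-partum. Without day 19 replicate 1 it was -0.69 at day 19 (adjusted p = 0.047), and without replicate 2 it was -0.40.

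The next gene of the chromosome 13 group, Ecm2, encodes another leucine-rich matrix protein and is not a member. Its log2 intensity was 8.25 and 8.46 in diestrus, 7.91 and 8.06 at day 12, 7.97 and 7.41 at day 19, and 7.78 and 7.67 post-partum. Like Omd and Ogn it was highest on both diestrus arrays, with differences of -0.37, -0.66 and -0.63 at day 12, day 19 and post-partum and adjusted p of 0.66 or more. Aspn, which lies between Ecm2 and Omd, did not keep this order, since its post-partum arrays lay within the diestrus range. Cenpp, whose span contains Aspn, Omd and Ogn, was below the minimum, at 3.89 to 4.87 on the 8 arrays.

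Podocan, of class V, restrains smooth muscle growth in vessel walls of mice and was, with biglycan, higher post-partum than in diestrus without overlap. It had 8.03 and 8.21 in diestrus, 7.98 and 8.03 at day 12, 8.07 and 7.88 at day 19, and 8.46 and 8.28 post-partum. Both post-partum arrays lay above all 6 others, and the other states lay close together. The log2 difference was 0.40 against day 19 (SE 0.14, adjusted p = 0.59) and 0.26 against diestrus (adjusted p = 0.73). Over the 8 arrays, Podn and Bgn differed least in pattern of all pairs of members, with a root mean square difference of 0.080 log2 after each gene was centred. Ogn and Prelp followed at 0.11, and Omd and Vcan were farthest apart at 0.81.

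Fibromodulin, a class II member abundant in tendon and valve, differed by more between the arrays of diestrus and of day 19 than between the means of any states. It had 5.95 and 6.96 in diestrus, 5.79 and 6.27 at day 12, 6.76 and 5.70 at day 19, and 5.80 and 5.60 post-partum. The 3 highest values came from diestrus replicate 3, day 12 replicate 3 and day 19 replicate 1, 1 array in each of 3 groups. On these 3 arrays the atrial light chain Myl7 read 8.24, 10.04 and 11.76, against 4.56 to 5.12 on the other 5, and the atrial calcium pump regulator Sln read 6.21, 7.89 and 10.62, against 3.75 to 4.52. The tendon and valve genes Chad and Comp split the arrays in the same way. They read 6.28 to 6.78 and 6.38 to 6.63 on the 3 arrays, against 4.98 to 5.33 and 5.14 to 5.71. The other valve and tendon markers did not. Scx was lowest on diestrus replicate 3 (6.13), and Tnmd was below the minimum. Cilp (7.20), Thbs4 (6.62) and Sox9 (7.10) were highest on post-partum replicate 4, where Myl7 was low. Fmod itself read 6.96 (diestrus), 6.27 (day 12) and 6.76 (day 19) on the 3 arrays of high Myl7, which differ in state. No difference between states passed the test: the log2 difference from diestrus was -0.42, -0.23 and -0.75 (SE 0.42, adjusted p of 0.73 or more). The second, dimmer Fmod probe set had 5.12 and 5.06 in diestrus, 4.75 and 5.09 at day 12, 5.42 and 4.91 at day 19, and 5.54 and 4.93 post-partum. It did not show this split over all arrays, though at day 12 and day 19 the array of high Myl7 again read higher. Its differences from diestrus were -0.17 at day 12, 0.07 at day 19 and 0.14 post-partum. The signs at day 19 and post-partum thus differed from those of the brighter set. The summed intensity of the 7 valve and tendon markers was 346 and 503 at day 12, 595 and 410 at day 19 and 451 and 570 post-partum, against 431 and 521 in diestrus. The part of atrial or valve tissue in the Fmod values was not tested.

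**Figure D3:**
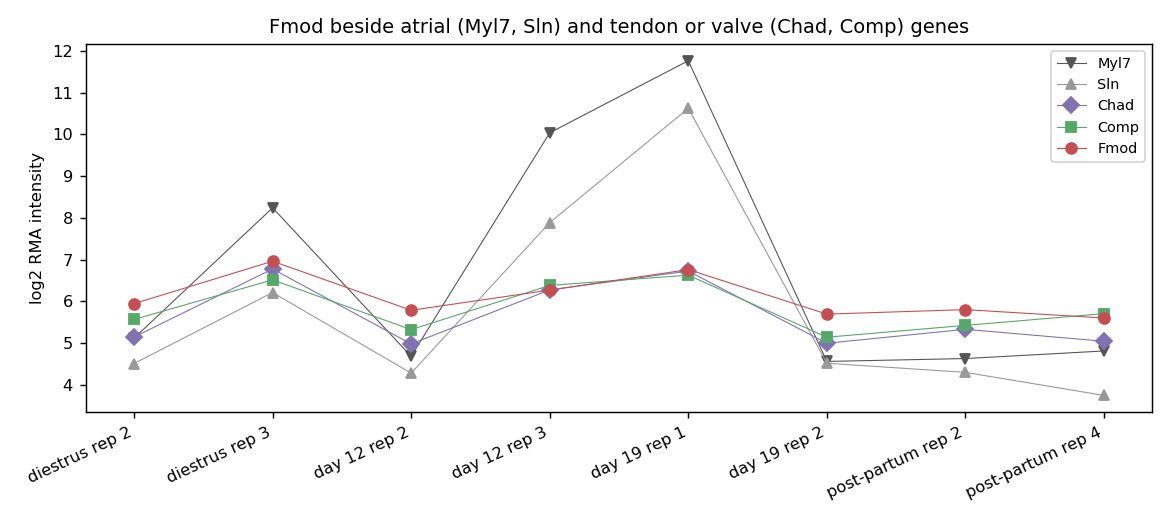
log2 RMA intensity (y axis) of Fmod, of the atrial genes Myl7 and Sln and of the tendon and valve genes Chad and Comp on each of the 8 arrays (x axis); thin lines only join the points of a gene. All 5 genes are highest on diestrus replicate 3, day 12 replicate 3 and day 19 replicate 1.

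With the 3 arrays of high Myl7 left out, a choice made after seeing the data that leaves 1 array in 3 of the groups, 0 genes passed for day 12 against diestrus, 327 for day 19 against diestrus and 0 for post-partum against diestrus. Among the members only Omd passed at day 19 against diestrus, at -1.37 (adjusted p = 0.045), and Aspn post-partum against day 19, at 1.41 (adjusted p = 0.022). Day 19 is then represented by replicate 2 alone.

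**Figure D4:**
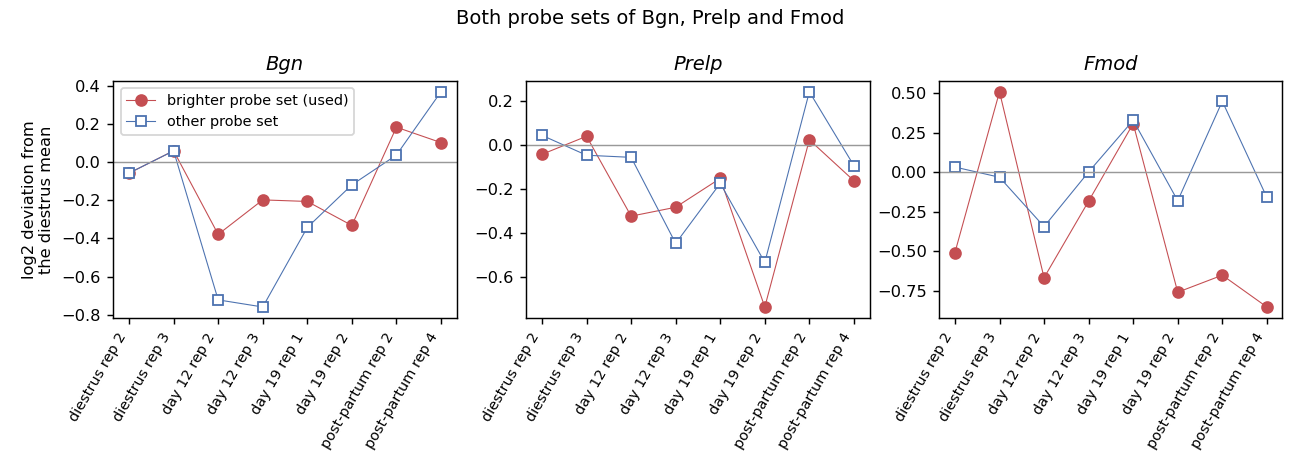
log2 deviation from the diestrus mean (y axis) of both probe sets of Bgn, Prelp and Fmod on the 8 arrays (x axis); filled circles are the brighter set used, open squares the other, and thin lines only join the points of a set. The Bgn sets share directions but the other set is lower at day 12, the Prelp sets are both lowest on day 19 replicate 2, and the Fmod sets part on diestrus replicate 3 and post-partum.

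Versican, the hyaluronan-binding gene of the set, was lowest at day 12 and highest post-partum. Its log2 intensity was 7.02 and 6.98 in diestrus, 6.82 and 6.75 at day 12, 7.31 and 7.22 at day 19, and 7.51 and 7.62 post-partum. The 4 states did not overlap at all, in the order day 12, diestrus, day 19 and post-partum. Post-partum was 0.57 log2 higher than diestrus (SE 0.13, 95% interval 0.28 to 0.86, adjusted p = 0.72), or 1.48-fold. Day 19 was 0.48 higher than day 12 (adjusted p = 0.68), and 0.27 higher than diestrus (adjusted p = 0.66). Post-partum was 0.30 higher than day 19 (adjusted p = 0.59). A moderated F test over the states gave an adjusted p of 0.70 over all genes and did not pass. The day 19 arrays differed widely in macrophage markers and atrial transcripts, whose part in the versican values was not tested. Versican values on these arrays differed by 0.10, and both lay above diestrus. With the 3 arrays of high Myl7 left out, or any single array left out, its direction stayed the same in all 5 comparisons and none passed.

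**Figure D5:**
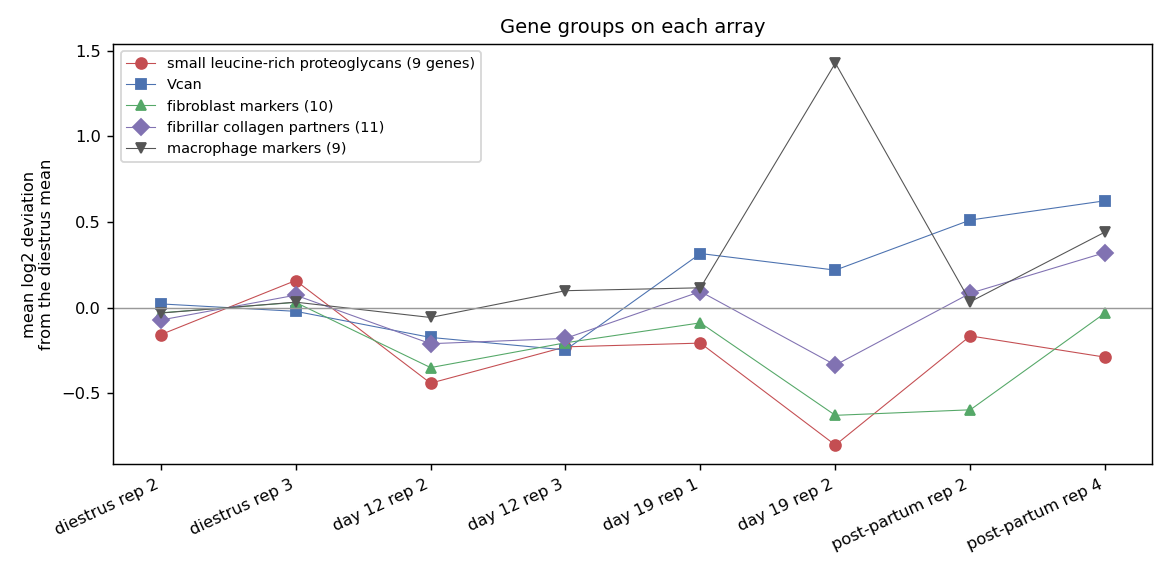
Mean log2 deviation from the diestrus mean (y axis) on each array (x axis) of the 9 small leucine-rich proteoglycans, Vcan, 10 fibroblast markers, 11 fibrillar collagen partners and 9 macrophage markers; thin lines only join the points of a group. Day 19 replicate 2 is lowest for the small leucine-rich proteoglycans and highest for macrophage markers, while Vcan is highest post-partum.

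Genes that work with these proteoglycans were read from 8 lists, and none of their members passed the adjusted test in any comparison. Of 11 tested genes for hyaluronan and its binding partners, the ligand and neighbours of versican in matrix, 10 averaged higher at day 19 than in diestrus (44.5% of all genes), 7 without overlap (16.4%), with a median of 0.37. Their mean was 0.53 above the diestrus mean on day 19 replicate 2 and 0.25 on replicate 1. The hyaluronan synthase Has2 had 6.80 and 7.27 at day 19, against 6.50 and 6.26 in diestrus, a log2 difference of 0.65 (adjusted p = 0.66). Has2 was lower post-partum than at day 19, with a log2 difference of -1.001 (adjusted p = 0.59), where Vcan was higher. The hyaluronan receptor Cd44, which macrophages also express, had 6.60 and 7.28 at day 19, against 6.19 and 6.12 in diestrus, higher on the array with high macrophage markers.

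Of 11 fibrillar collagen partners, the fibrils that small leucine-rich proteoglycans coat, 9 averaged higher post-partum than in diestrus (49.4% of all genes), 7 without overlap (21.1%), with a median of 0.30. Col1a1 had 8.65 and 8.82 post-partum, against 8.05 and 8.27 in diestrus (log2 difference 0.58, adjusted p = 0.72). Col5a1, which starts fibrils, had 7.529 and 7.462 post-partum, against 7.002 and 7.030 in diestrus (log2 difference 0.48, adjusted p = 0.72). At day 12, 7 of the 11 averaged lower than in diestrus (44.9% of all genes), with a median of -0.07. The median of -0.32 of the proteoglycans was farther from 0, and this gap was not tested. On post-partum replicates 2 and 4 the fibroblast markers averaged 0.60 and 0.03 log2 below the diestrus mean. The collagen partners averaged 0.08 and 0.32 above it, so replicate 4 was the higher for both sets. The summed fibroblast intensity was 5481 and 8465, against 8314 and 9218 in diestrus. Of the 10 fibroblast markers 9 averaged lower than in diestrus (50.6% of all genes) and 1, Mfap5, higher. The part of fibroblast content in the collagen values was not tested.

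Among 16 proteases and inhibitors that act on proteoglycans, 12 averaged higher at day 19 than in diestrus (44.5% of all genes), with a median of 0.30. The inhibitor Timp1 had the smallest F test p of the list (adjusted p = 0.53). It read 7.59 and 8.04 at day 19 and 7.93 and 8.60 post-partum, against 6.55 and 6.86 in diestrus, differences of 1.11 (adjusted p = 0.66) and 1.56 (adjusted p = 0.65). Adamts9, a protease that cleaves versican, had 8.43 and 8.20 at day 12, against 7.84 and 7.49 in diestrus (log2 difference 0.65, adjusted p = 1.00). It was also higher than in diestrus at day 19 (0.36) and post-partum (0.40). Vcan was lower than in diestrus at day 12 but higher at day 19 and post-partum. These are RNA values, and cleavage was not measured.

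In 4 of the remaining lists the medians stayed within 0.13 log2 of diestrus in all 3 states. One list held 19 enzymes that build chondroitin and dermatan sulphate, the sugar chains of decorin, biglycan and versican. Of these 14 averaged lower at day 12 (44.9% of all genes), 12 at day 19 (55.5%) and 9 post-partum (50.6%). The medians were -0.04, -0.04 and 0.05, and the post-partum difference was 0.32 for Chpf and -0.30 for Xylt1. Of 7 genes of keratan sulphate and tyrosine sulphation, the medians were 0.08, 0.03 and 0.13; at day 19 the difference was 0.20 for B4galt1 and -0.18 for Chst2. Of 12 heparan sulphate proteoglycans the medians were -0.05, -0.07 and 0.11. Perlecan (Hspg2) had 10.33 and 10.14 post-partum, against 9.80 and 9.76 in diestrus (log2 difference 0.46), and syndecan 4 (Sdc4) had 7.86 and 8.51 at day 19, against 7.59 and 7.48 in diestrus (0.65). Of 20 ligands and receptors bound by the family the medians were -0.10, 0.03 and -0.03. The matricellular protein Ccn4 was 0.67 higher post-partum than in diestrus (adjusted p = 0.72), but it was tested only through its day 19 and post-partum means of 5.36 and 5.44, since those of 5.01 at day 12 and 4.77 in diestrus were below the minimum. The TGF-beta co-receptor Tgfbr3 had a difference of -0.53 at day 19 (adjusted p = 0.66). Of 9 other small leucine-rich proteoglycans 8 were measured and 4 tested, with Kera, Epyc, Nyx and Podnl1 below the minimum. The 4 tested had medians of -0.15, -0.07 and -0.29 at day 12, day 19 and post-partum. Among them Ecm2 was lower, and Chadl was 0.18, 0.07 and 0.24 higher. Chad, described above as high on the arrays of high Myl7, was also among them.

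The genes most alike to the proteoglycans in pattern were found among 12713 tested genes by the root mean square difference over the 8 arrays after centring. Nearest to Omd were Bmp4 (0.19), Tc2n (0.24), Penk (0.25), Itgbl1 (0.25) and Zc3h6 (0.27), where the Omd values themselves vary by 0.59. Tc2n, like Omd, was tested only through its diestrus mean, with 5.17 and 5.58 in diestrus. Bmp4, a ligand of the TGF-beta family, had 7.55 and 8.24 in diestrus, 7.13 and 7.79 at day 12, 7.50 and 6.26 at day 19, and 6.93 and 7.05 post-partum. Nearest to Vcan, which varied by 0.30, were Epn3 (0.11), Loxl1 (0.12), Dynll1 (0.13), Carhsp1 (0.13) and Thap7 (0.13). Dynll1 was tested only through its means at day 19 (5.21 and 5.48) and post-partum (5.42 and 5.51). Loxl1, which crosslinks elastin, had 8.51 and 8.38 in diestrus, 8.21 and 8.25 at day 12, 8.65 and 8.33 at day 19, and 8.99 and 8.98 post-partum. Nearest to the mean of the 9 small leucine-rich proteoglycans, which varied by 0.26, were Slc44a2 (0.069), Fgfr1 (0.073), Rab34 (0.074), C1qtnf2 (0.082) and Bicc1 (0.094). These likenesses are descriptions over 8 arrays, which share 1 array with large deviations. In diestrus, day 12 and day 19, Omd and Bmp4 were each higher on the array of high Myl7, and post-partum had no such array. The part of atrial transcripts in these likenesses was not tested.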

How the data were processed

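The authors deposited log2 intensities per probe set; RMA and Affymetrix Expression Console are named in the submitters' processing notes, and versions and genome build were not given there. Per the labels' protocols, 100 ng of RNA became biotin-labelled cDNA. Of 34365 probe sets, 23521 had 1 symbol in the platform annotation, 1814 several and 9030 no entry. The brightest probe set by mean stood for a gene. Genes whose highest group mean was under 5.19, the median of the whole table, were left out, so that 13872 of 22180 genes and all 10 members were tested.

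limma 3.58.1 (R 4.3.3) fitted the 4 group means to the 8 arrays together, with 1 estimate of the spread (4 residual and 3.68 prior degrees of freedom). Tests were two-sided, with Benjamini-Hochberg adjustment over all genes tested and a threshold of 0.05; confidence intervals cover 95%. The number of arrays limits the precision, with a median standard error of 0.17. The fit was first tested on simulated data. Members and gene lists were chosen with earlier results of these data known. Named were all members, up to 2 genes per pathway list with the smallest F test p, and the 5 genes nearest in pattern to Omd, to Vcan and to the mean of the other 9 members. Myl7, Sln, Chad, Comp, the other single marker genes and Cenpp were named after their values were seen. Array weights, variance model, filters, scaling, probe set choice, a replicate block and left-out arrays were tried as alternatives. Promoters came from RefSeq (GRCm38.p6).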

Additional observations from a re-analysis of the deposited data

How the results depend on the processing

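Of 800 values of single members under the alternatives, 757 kept their direction and side of the threshold, 31 changed sign and 12 passed the threshold where they had not before. Fitting only the 2 groups compared, array weights, the variance model, the filters and the replicate block left each log2 difference unchanged. Leaving out an array of a group not compared did so too. Such settings could move only the adjusted p, so the 757 is no measure of how steady the directions were. Vcan changed sign or passed the threshold under none of its alternatives. Leaving out 1 array at a time gave 0 to 1 gene past the threshold for day 12 against diestrus, 0 to 1233 for day 19 against diestrus, 0 to 3 for post-partum against diestrus, 0 to 1312 for day 19 against day 12 and 0 to 872 for post-partum against day 19, the highest counts of the 3 comparisons with day 19 without day 19 replicate 1. The median member difference then ranged from -0.71 to -0.17 for day 19 against diestrus and from -0.34 to 0.081 for day 19 against day 12. Between 2 and 9 members were lower at day 19 than at day 12, and 0 to 3 lower post-partum than at day 19.

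Members that changed sign when 1 array was left out had these ranges. Against diestrus, Fmod ranged from -0.93 to 0.083 at day 12 and from -0.76 to 0.31 at day 19; post-partum, Aspn ranged from -0.17 to 0.15, Prelp from -0.16 to 0.025 and Lum from -0.14 to 0.31. For day 19 against day 12, the ranges were -0.94 to 0.081 (Aspn), -0.43 to 0.15 (Prelp), -0.81 to 0.18 (Lum), -0.16 to 0.095 (Dcn), -0.071 to 0.11 (Bgn), -0.33 to 0.73 (Fmod) and -0.13 to 0.071 (Podn). For post-partum against day 19 they were -0.63 to 0.29 (Omd), -0.047 to 0.11 (Dcn) and -1.06 to 0.0071 (Fmod).

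Against the 0 genes reported, array weights gave 1 gene for day 12 against diestrus. Trended and robust variance gave 1 gene for post-partum against day 19, as did a stricter filter, under which 8 members were tested and 0 were lower in that comparison. A common array median gave 0.0109 for Aspn post-partum against diestrus, and 0.0121 for Dcn and 0.0147 for Podn for day 19 against day 12. The mean of both probe sets gave 0.0036 for Prelp post-partum against diestrus. The largest counts among settings other than leaving out 1 array came with the 3 arrays of high Myl7 left out, where 327, 282 and 346 genes passed for day 19 against diestrus, day 19 against day 12 and post-partum against day 19, and 0 members were lower in the last. Signs then changed for Aspn post-partum against diestrus (0.15), Dcn (0.0178) and Fmod (-0.0918) for day 19 against day 12, and Omd (0.29) and Fmod (0.0071) for post-partum against day 19. The cause was not tested.

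Day 12 and diestrus share replicate numbers 2 and 3. With the replicate number as a block, 18 genes passed and 0 were members. The difference of replicate 2 and 3 in the 2 groups correlated at 0.22 over 13872 genes, which with 2 numbers is no evidence of pairing. With 2 arrays per group, dim genes such as Omd and Fmod are limited most.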
